A study of Mus musculus with 8 samples.

Results

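The acute phase response proteins followed here are 10 secreted proteins: the serum amyloid A proteins Saa1, Saa2, Saa3 and Saa4, the orosomucoids Orm1, Orm2 and Orm3, lipocalin 2 (Lcn2), haptoglobin (Hp) and serum amyloid P component (Apcs). They were taken by gene symbol from a table of 17810 genes, and all 10 were listed. The choice of members was made with earlier results of these data known. All 10 also passed the filter on low counts that left 12395 genes for testing. The RNA came from whole livers of WT and HKO littermates, 4 male mice each. HKO mice carry miR-33 alleles flanked by loxP sites, which Cre recombinase driven by the albumin promoter deletes in hepatocytes. WT and HKO mice alike had eaten CD-HFD, a diet rich in fat and lacking choline that induces steatosis, for 3 months from 8 weeks of age and were 5 months old. Genotypes rest on the labels, since levels of Mir33 were not analysed here.

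During inflammation, cytokines of the IL-6 and IL-1 families reach hepatocytes and change the mixture of proteins that the liver releases into plasma. The transcription factors STAT3, NF-kB and C/EBP drive this acute phase response at the promoters of the induced genes. In mice, Saa1, Saa2 and Apcs encode the major inducible acute phase proteins, Saa4 is expressed constitutively, and Saa3 and Lcn2 are also made outside hepatocytes, by macrophages and by neutrophils or epithelial cells respectively. Orosomucoids bind basic drugs and modulate immune cells, haptoglobin captures free hemoglobin, and lipocalin 2 withholds iron from bacteria by binding siderophores.

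The upstream sequences of Saa1, Saa2, Orm2 and Lcn2, members whose values the results turn on, are shown here. Any part of these letters in the levels of the genes was not tested. Each line gives the 250 bases before the start site, 5′ to 3′ on the gene's strand, from RefSeq on GRCm38.p6. The RefSeq span of Saa1 reaches 46743181, so most of the Saa1 letters, with the marked match, lie inside that span. Capitals mark matches to the C/EBP letters TTGCNNAA and, in Lcn2, also to the glucocorticoid response element letters ACANNNTGT.
Saa1, chr7:46742981-46743230, minus strand: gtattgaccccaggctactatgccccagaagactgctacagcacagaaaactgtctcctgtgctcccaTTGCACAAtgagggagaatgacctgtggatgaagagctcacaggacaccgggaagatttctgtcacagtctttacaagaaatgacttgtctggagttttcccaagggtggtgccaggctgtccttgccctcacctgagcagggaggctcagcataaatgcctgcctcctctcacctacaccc
Saa2, chr7:46751583-46751832, plus strand: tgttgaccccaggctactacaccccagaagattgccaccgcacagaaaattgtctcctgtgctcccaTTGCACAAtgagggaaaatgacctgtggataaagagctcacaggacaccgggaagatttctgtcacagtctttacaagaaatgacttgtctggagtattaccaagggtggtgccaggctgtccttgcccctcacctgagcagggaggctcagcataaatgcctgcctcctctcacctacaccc
Orm2, chr4:63362199-63362448, plus strand: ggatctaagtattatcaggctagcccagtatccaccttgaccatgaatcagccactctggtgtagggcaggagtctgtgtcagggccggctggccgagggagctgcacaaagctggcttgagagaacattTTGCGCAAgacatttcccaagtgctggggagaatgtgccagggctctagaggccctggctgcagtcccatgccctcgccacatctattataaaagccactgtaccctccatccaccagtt
Lcn2, chr2:32387740-32387989, minus strand: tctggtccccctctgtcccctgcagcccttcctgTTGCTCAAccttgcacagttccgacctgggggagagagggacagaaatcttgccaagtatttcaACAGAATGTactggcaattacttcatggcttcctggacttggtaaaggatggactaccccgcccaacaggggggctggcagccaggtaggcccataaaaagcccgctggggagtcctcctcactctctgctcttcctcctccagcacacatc

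RefSeq windows of 300 bases, from 250 before to 50 after the start site, were held for 8 of the 10 members. The RefSeq spans of Saa1, Saa3 and Orm3 begin further upstream, at 46743181, 46719615 and 63356069. Their windows therefore do not surround the outermost RefSeq start. The windows of Saa1 and Saa2 were identical at 287 of 299 aligned bases (96.0%), and those of Orm2 and Orm3 at 263 of 295 (89.2%). On either strand, TTGCNNAA occurred in 7 of the 8 windows, the exception being Apcs, while 10.8% of 32851 windows of the same length held it. The match lay at −182 to −175 in Saa1 and at −183 to −176 in Saa2, and at −120 to −113 in Orm2 and −121 to −114 in Orm3. These windows of neighboring duplicates are not independent of each other. The NF-kB letters GGNNTTTCC were found in 1 member window, that of Saa3, and in 5.82% of all windows. The STAT letters TTCNNNGAA were found in 1 member window, that of Apcs, and in 8.30% of all windows. CTGGGAA, the core of an IL-6 response element, was found in Orm3 and in 2 places in Apcs, and in 11.1% of all windows. ACANNNTGT occurred in Orm3 and Lcn2 and in 6.85% of all windows. A match describes letters only.

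The libraries held 12174339 to 18735785 estimated counts each, so that 3 counts, the floor of a library, corresponded to 0.149 to 0.255 CPM (counts scaled to a common library size after TMM adjustment). This floor covers counting error only. All members lay above it in every liver, down to 19 counts for Saa3. The members took 0.237% to 0.391% of all counts of a liver. Hp alone gave 46.1% to 62.5% of the members' counts, and the 7 members other than Hp, Orm1 and Saa4 gave 4.63% to 9.58%. The hepatocyte marker list (Alb, Apoa1, Ttr, Hnf4a, Cyp2e1, Cps1, Serpina1a and Tat) summed to 79600 to 135000 CPM. In bulk liver, fewer cells of a type and less RNA per cell cannot be told apart.

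HKO replicate 2 stood apart from the other livers in the marker lists. Of the cholangiocyte list, Krt19 was 16.9 CPM in this liver against 0.169 to 1.07 CPM in the other 7, Epcam 16.5 against 0.329 to 1.02 CPM, Krt7 3.32 against 0.0675 to 1.07 CPM and Cftr 3.17 against 0 to 0.497 CPM. Spp1 was also highest there, at 63.1 CPM against 24.0 to 42.5 CPM, while Sox9 was 7.87 CPM there and 15.5 CPM in HKO replicate 3. The 6 genes of that list summed to 111 CPM there and to 31.0 to 53.3 CPM elsewhere. Spp1 gave the largest part of the 111 CPM. Ltf, which encodes lactoferrin and was on the neutrophil list, of whose 12 genes 10 were in the table, was 39.0 CPM in this liver and at most 0.0497 CPM in the others. Of the other neutrophil markers S100a8 was 3.40 CPM there and 0.113 to 1.77 CPM elsewhere, and S100a9 was 2.93 CPM against 0.248 to 1.26 CPM. Csf3r (1.78 against 0.496 to 1.51 CPM), Mmp9 (1.00 against 0 to 0.349 CPM) and Cxcr2 (0.849 against 0 to 0.628 CPM) were also highest in HKO replicate 2. The rest of the list was not, since Ngp and Mmp8 were at 0 there. Elane was 0.0772 CPM there and 0.248 CPM in WT replicate 1, and Retnlg 0.0772 CPM there and 0.113 CPM in HKO replicate 3. Kupffer cell and macrophage markers summed to 98.8 CPM in HKO replicate 2 and to 136 to 327 CPM in the other 7 livers. For fold changes and mean levels that rest on this liver, the value without it is also given.

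No member passed the threshold of an adjusted p under 0.05 in the edgeR quasi-likelihood test with Benjamini-Hochberg adjustment over the 12395 genes, against 5.03% of all genes tested (206 called higher and 418 lower in HKO livers). Orm1 and Orm2 had an unadjusted p under 0.05, and DESeq2 called 1 member, Orm2, against 8.18% of all genes. With limma-voom no member passed either. Of the 10 log2 fold changes, 8 were negative and 2 positive, with a median of −0.23, while the median over all genes was 0.01. In no member did the 4 HKO values lie wholly above or below the 4 WT values, which was so for 12.6% of all genes tested. Among all calls 33.0% were higher in HKO livers, and with total count scaling 16.1%, but none of the 10 directions changed with the scaling.

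**Figure D1:**
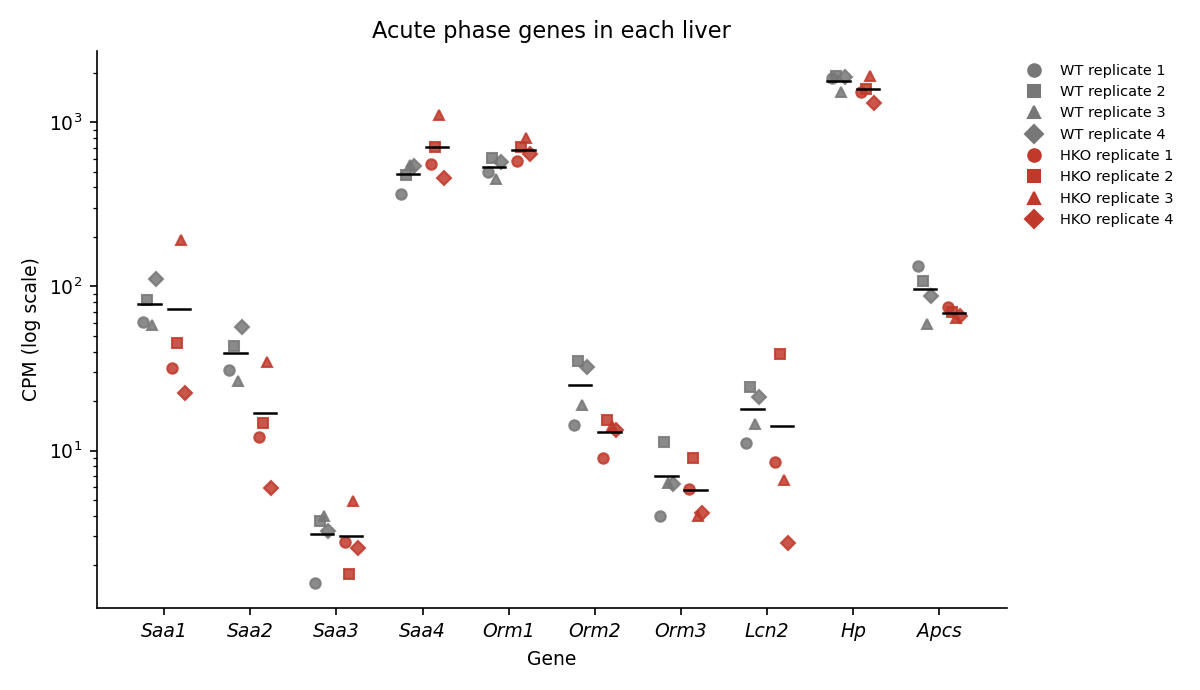
CPM of the 10 members on a log axis, with 1 point per liver (gray WT, red HKO, 1 marker shape per replicate number) and the mean of each genotype as a black line. Saa1 stands high in HKO replicate 3 at 192 CPM and Lcn2 in HKO replicate 2 at 38.7 CPM, and the genotypes overlap in every gene.

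Of the serum amyloid A genes, Saa1 lies on chr7:46740497-46742980, minus strand, in GRCm38 and was 60.2, 82.4, 58.3 and 111 CPM in WT replicates 1 to 4 and 31.9, 44.9, 192 and 22.5 CPM in HKO replicates 1 to 4. Thus 3 of the 4 HKO livers lay below all WT livers, and HKO replicate 3 lay above all of them. The HKO values spanned 8.57-fold and the WT values 1.90-fold. The log2 fold change of HKO against WT was −0.09 (SE 0.74, edgeR adjusted p = 0.967). Without HKO replicate 3 it was −1.23 (SE 0.32, edgeR adjusted p = 0.110), and it changed sign when any of 4 other livers was left out. DESeq2 gave Saa1 no p-value.

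Saa2, whose protein is the close relative of Saa1 on high-density lipoprotein, lies next to it on the other strand (chr7:46751833-46754313). It was 31.1, 43.2, 26.6 and 56.4 CPM in WT replicates 1 to 4 and 12.1, 14.7, 34.8 and 5.87 CPM in HKO replicates 1 to 4. HKO replicate 3 was again the highest HKO liver, and here the only one inside the WT range. The log2 fold change was −1.21 (SE 0.55, edgeR adjusted p = 0.298), which became −1.84 (SE 0.39, edgeR adjusted p = 0.0628) without HKO replicate 3. The difference missed the threshold in both fits.

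Saa4, the constitutive member carried on high-density lipoprotein (chr7:46727992-46732603, minus strand), was 362, 476, 550 and 540 CPM in WT livers and 553, 702, 1108 and 459 CPM in HKO livers. All but 1 of its HKO values exceeded every WT value, and the fitted log2 fold change, 0.55 (SE 0.28, edgeR adjusted p = 0.329), was opposite in sign to that of Saa2. Without HKO replicate 3 it was 0.25 (SE 0.17, edgeR adjusted p = 0.524). Saa3 (chr7:46711998-46715676, minus strand), the macrophage-associated member, was close to the lower end of detection. It was 1.57, 3.70, 3.98 and 3.22 CPM in WT livers and 2.77, 1.78, 4.90 and 2.55 CPM in HKO livers, and its log2 fold change was −0.05 (SE 0.34, edgeR adjusted p = 0.958). Without HKO replicate 2 this fold change was 0.13 (SE 0.33, edgeR adjusted p = 0.883). The lowest HKO value of Saa3 was in replicate 2, the liver with the lowest sum of Kupffer cell and macrophage markers, and its part in this value was not tested.

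The orosomucoid genes form a cluster on chromosome 4, all on the plus strand. Orm1 (chr4:63344556-63348163) was 494, 607, 450 and 572 CPM in WT livers and 583, 703, 796 and 640 CPM in HKO livers. All but 1 of the HKO livers exceeded every WT liver, and the log2 fold change was 0.36 (SE 0.12, edgeR adjusted p = 0.121). Orm2 (chr4:63362449-63365877) went the other way, at 14.3, 34.8, 19.0 and 32.3 CPM in WT livers and 9.04, 15.2, 14.2 and 13.4 CPM in HKO livers. Only WT replicate 1 lay within the HKO range. The log2 fold change of Orm2 was −0.96 (SE 0.30, edgeR adjusted p = 0.127). DESeq2 gave −0.96 with an adjusted p of 0.00770. Orm3 (chr4:63356158-63359506), between the other two, was 3.97, 11.2, 6.37 and 6.25 CPM in WT livers and 5.80, 8.96, 4.0 and 4.17 CPM in HKO livers. Its genotypes overlapped throughout (log2 fold change −0.28, SE 0.35, edgeR adjusted p = 0.717). Without HKO replicate 2, its highest HKO liver, the fold change was −0.58 (SE 0.32, edgeR adjusted p = 0.372).

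Lcn2 (chr2:32384637-32387739, minus strand) had the widest range of the members. It was 11.1, 24.5, 14.4 and 21.1 CPM in WT livers and 8.57, 38.7, 6.65 and 2.72 CPM in HKO livers. HKO replicate 2 was the highest of all 8 livers, and the other 3 HKO livers lay below all WT livers. The log2 fold change was −0.33 (SE 0.81, edgeR adjusted p = 0.876), and without HKO replicate 2 it was −1.56 (SE 0.44, edgeR adjusted p = 0.115). Thus the fold change is nearer to 0 with this liver than without it, and the call is missed in both fits. HKO replicate 2 is also the liver with Ltf, Krt19, Epcam, Krt7 and Cftr far above the other 7, and the part of these in the Lcn2 value was not tested.

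Hp (chr8:109575128-109579172, minus strand) was the most abundant member, at 1849, 1906, 1524 and 1881 CPM in WT livers and 1526, 1583, 1901 and 1309 CPM in HKO livers. HKO replicate 3 lay among the high WT livers and the other 3 HKO livers below them. The log2 fold change was −0.18 (SE 0.12, edgeR adjusted p = 0.465). Apcs (chr1:172893961-172895054, minus strand), a pentraxin that binds amyloid fibrils, was 133, 107.5, 58.6 and 87.2 CPM in WT livers and 74.6, 70.02, 64.5 and 65.7 CPM in HKO livers. All but 1 of the WT livers were above all HKO livers, and WT replicate 3 was below them. The log2 fold change was −0.49 (SE 0.22, edgeR adjusted p = 0.258), and without WT replicate 3 it was −0.67 (SE 0.13, edgeR adjusted p = 0.0201), which passed the threshold. Without WT replicate 1, the highest liver, it was −0.30 (SE 0.18, edgeR adjusted p = 0.465).

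Compared between genes per transcript length, as counts per kilobase scaled to 1 common total per liver (TPM), the order of the mean levels in WT livers was Hp (3077 ± 184 TPM), Orm1 (1584 ± 184), Saa4 (537 ± 116), Saa1 (294 ± 78.3), Apcs (228 ± 67.5), Saa2 (138 ± 40.3), Orm2 (74.9 ± 28.6), Lcn2 (45.0 ± 15.2), Orm3 (21.0 ± 9.58) and Saa3 (3.33 ± 1.30; SD, n = 4). The means of the 4 HKO livers had this order too, from Hp at 2438 ± 310 TPM to Saa3 at 2.78 ± 1.02 TPM (SD, n = 4). In 2 places, however, it depended on which livers were included. Saa1 (237 ± 241 TPM) was above Apcs (148 ± 20.4 TPM; SD, n = 4) through HKO replicate 3, at 594 TPM, and without that liver Saa1 was at 118 TPM and Apcs at 156 TPM. In WT livers the neighbors Hp and Orm1, Orm1 and Saa4, Saa4 and Saa1, and Orm3 and Saa3 differed by more than the sum of their SDs, and the other neighbors by less. In HKO livers Saa4 and Saa1 differed by less than that sum and Apcs and Saa2 by more, and Orm2 and Lcn2 had almost the same mean level, 34.7 ± 7.29 and 33.5 ± 40.5 TPM (SD, n = 4). Lcn2 was 93.6 TPM in HKO replicate 2 and 6.06 to 20.7 TPM in the other 3. Without HKO replicate 2 its mean was 13.5 TPM, with Orm2 at 31.8 TPM and Orm3 at 12.4 TPM, which kept the order. Lcn2 lay above Orm2 without HKO replicate 1 (37.8 against 37.7 TPM), HKO replicate 3 (40.1 against 34.8 TPM) or HKO replicate 4 (42.7 against 34.6 TPM). The longest annotated transcript was used for length. For Saa3 this was a form of 2200 bases with 2 exons. With the 4-exon transcript of 555 bases that fits the listed coordinates, its level would be 13.2 TPM in WT and 11.0 TPM in HKO livers, still the lowest. These means lie within 1 SD of Orm3, which was 21.0 ± 9.58 TPM in WT and 15.7 ± 7.26 TPM in HKO livers. With that length Orm3 and Saa3 therefore differed by less than the sum of their SDs.

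**Figure D2:**
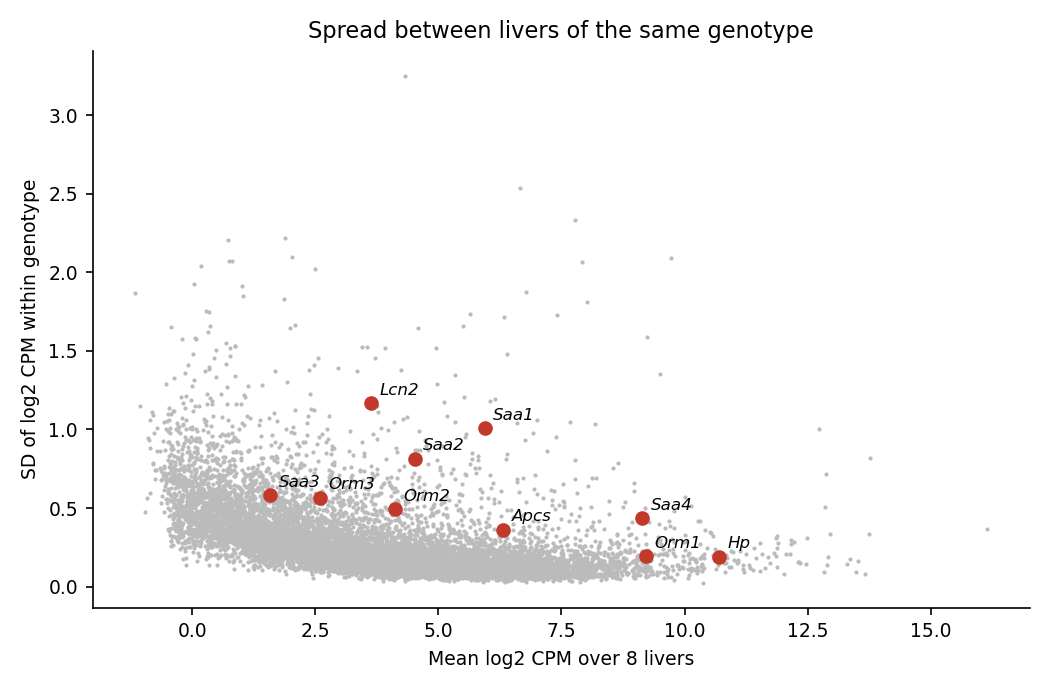
SD of log2 CPM between livers of the same genotype against mean log2 CPM, for all 12395 genes tested (gray) and the 10 members (red). Lcn2, Saa1 and Saa2 lie far above most genes of similar level, while Orm1 and Hp lie within the cloud.

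The members differed in how much they varied between livers of the same genotype. The SD of log2 CPM within genotypes (6 degrees of freedom) was 1.17 for Lcn2, 1.01 for Saa1 and 0.814 for Saa2. Among genes tested in the same decile of mean expression these were at percentiles 99.7, 99.4 and 99.2, and the median SD of those genes was 0.190, 0.128 and 0.146. Of the 10 members, 7 lay above percentile 90 of their decile, and Saa3 (83.1), Orm1 (76.0) and Hp (74.9) lay below it. Without HKO replicate 3 the SD of Saa1 was 0.460 and that of Saa4 0.289 in place of 0.435. Without HKO replicate 2 that of Lcn2 was 0.667, and without WT replicate 3 that of Apcs was 0.206 in place of 0.362. Of the 7 members above percentile 90, Orm3 was at percentile 83.0 without WT replicate 2 and Apcs at 84.3 without WT replicate 3. Saa1, Saa2 and Lcn2 stayed at percentile 97.6 or higher whichever liver was left out. Within HKO livers the log2 SD was 1.36 for Saa1 and 1.57 for Lcn2, against 0.434 and 0.516 in WT livers. Apcs had the opposite order, with 0.0957 in HKO and 0.503 in WT livers.

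**Figure D3:**
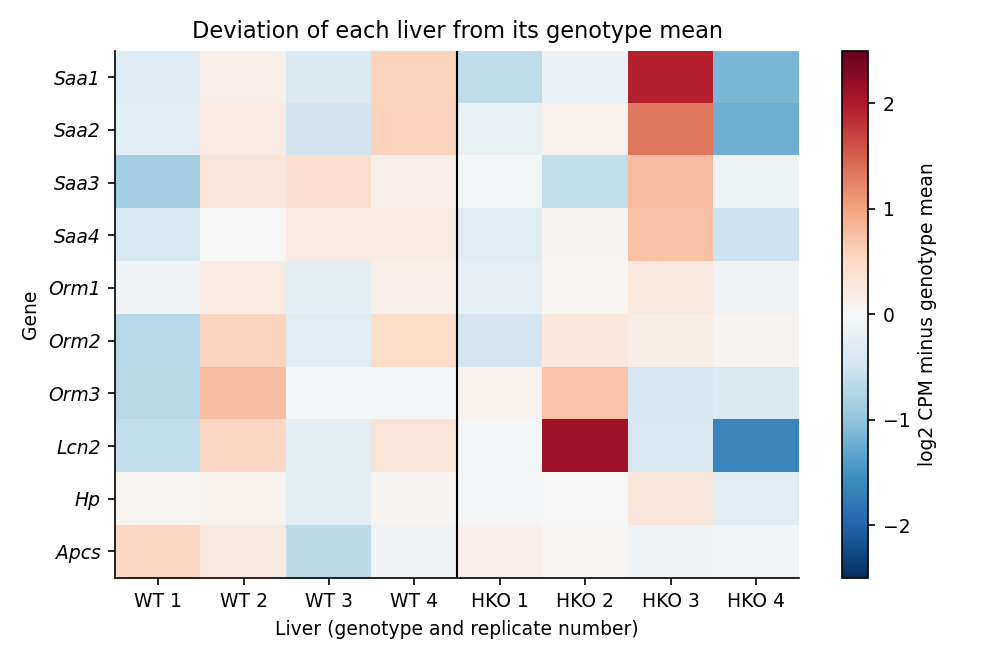
Log2 CPM of each member in each liver minus the mean of its genotype (color scale, blue below and red above). Saa1, Saa2, Saa3 and Saa4 are all above their mean in HKO replicate 3, by 1.94, 1.32, 0.775 and 0.733, while Lcn2 is above its mean in HKO replicate 2, by 2.11.

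The highest liver was not the same for all members. The genotype-centered log2 CPM of Saa1 and Saa2 had a Pearson r of 0.954 over the 8 livers, Saa2 and Hp 0.923, Saa1 and Saa4 0.895, Saa1 and Hp 0.857, and Orm1 and Orm2 0.789. With 1 liver left out, the r of Saa1 and Saa2 stayed between 0.953 and 0.971, that of Saa1 and Saa4 was 0.683 without HKO replicate 3, and that of Saa1 and Hp 0.752. Lcn2 was closest to Orm3 (0.783, and 0.664 without HKO replicate 2). Saa1 and Lcn2 had an r of 0.189, which rested on which livers were included, at 0.825 without HKO replicate 3 and −0.27 without HKO replicate 4. Apcs had an r between −0.59 (Saa3) and 0.43 (Hp) with the other members. These coefficients describe 8 livers whose values share library and scaling, and Saa1 and Saa2 can also share reads. HKO replicate 3 was above its genotype mean in Saa1, Saa2, Saa3, Saa4, Orm1, Orm2 and Hp and below it in Orm3, Lcn2 and Apcs. HKO replicate 4 was below its mean in every member but Orm2.

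Ratios of the counts of 2 members within a liver do not depend on the scaling of libraries and remove what both share. They were chosen after the values had been seen. Saa2 counts were 51.7%, 52.4%, 45.6% and 50.9% of Saa1 counts in WT replicates 1 to 4 and 37.8%, 32.9%, 18.1% and 26.1% in HKO replicates 1 to 4. Every HKO liver lay below every WT liver, although neither gene alone separated the genotypes. The log2 ratio of Saa1 to Saa2 was 1.00 ± 0.09 in WT and 1.85 ± 0.47 in HKO livers (SD, n = 4), a difference of 0.85 that ranged from 0.65 to 1.00 over the 8 sets lacking 1 liver. The ratio to Saa1 separated the genotypes for 73 of the other 12394 genes tested (0.589%). A ratio to Saa1 carries the wide spread of Saa1 itself (SD 1.01, percentile 99.4 of its decile). Saa2 varied with Saa1 (r = 0.954) and can share reads with it, so this share is not a like background for Saa2.

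Within the orosomucoids, Orm2 counts were 2.90%, 5.74%, 4.23% and 5.65% of Orm1 counts in WT livers and 1.55%, 2.17%, 1.78% and 2.09% in HKO livers, again without overlap. The log2 ratio of Orm1 to Orm2 was 4.48 ± 0.46 in WT and 5.73 ± 0.22 in HKO livers (SD, n = 4), a difference of 1.25. Hp counts were 374%, 314%, 339% and 329% of Orm1 counts in WT livers and 262%, 225%, 239% and 205% in HKO livers. For Orm1 as the denominator, however, 22.4% of the other genes tested separated the genotypes. Of all 45 pairs of members, 7 did so, the remaining 4 being Saa2 with Saa4, Saa2 with Orm1, Saa4 with Orm2 and Orm1 with Apcs. Each gave a two-sided exact permutation p of 0.0286, the smallest that 4 against 4 livers allow, and 0.184 after Benjamini-Hochberg adjustment over the 45 pairs, so that no pair passed 0.05.

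**Figure D4:**
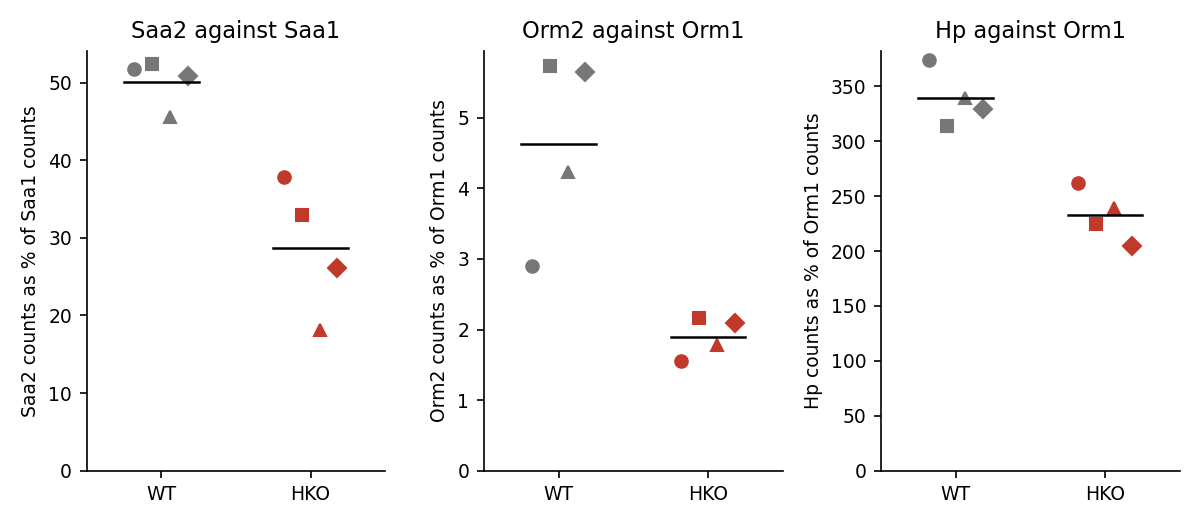
Counts of Saa2 as a percentage of Saa1 counts, and of Orm2 and Hp as a percentage of Orm1 counts, in each liver (points, marker shape by replicate number) with the mean of each genotype (line). The genotypes do not overlap in any panel, and Saa2 counts are 45.6% or more of Saa1 counts in WT livers and 37.8% or less in HKO livers.

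How reads were shared between the paralogs bears on these ratios. The transcripts of Saa1 and Saa2 were identical at 94.4% of 606 aligned bases, and 15.2% of the 45-base windows of Saa1, but 4.67% of its 75-base windows, occurred unchanged in Saa2. For Orm1 and Orm2 the identity was 91.0%, and 22.3% of 45-base and 13.8% of 75-base windows were shared. Both lengths are given because the labels name each of them. Orm1, Orm2 and Hp had fractional counts in all 8 livers, Saa2 in 5, Saa1 in 3 and Orm3 in 2, and the split of such reads was the authors'. With paralogs summed in the same fit, Saa1 plus Saa2 gave a log2 fold change of −0.38 (SE 0.70, edgeR adjusted p = 0.831) and the 3 orosomucoids 0.31 (SE 0.12, edgeR adjusted p = 0.188). How far the split set the ratios was not tested.

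The remaining genes of the acute phase response were described from lists. The share beside which each count of called genes stands is 5.03% of all genes tested, 206 higher and 418 lower in HKO livers. Of 30 other genes listed as positive acute phase genes 29 were tested, and 8 were called higher and 1 lower in HKO livers, with a median log2 fold change of 0.21. Whether each gene of this list is induced during inflammation in mice was not tested. The genes called higher were the fibrinogen chains Fga (0.54), Fgb (0.61) and Fgg (0.54), the inter-alpha-trypsin inhibitor heavy chain Itih3 (0.62), and the protease inhibitors Serpina3k (1.09), Serpina1a (0.61), Serpina1c (0.90) and Serpina1d (0.64), as log2 fold changes with edgeR adjusted p of 0.0113 to 0.0348. Fga, for example, was 4738, 4499, 4421 and 5084 CPM in WT livers and 5879, 6350, 7814 and 7149 CPM in HKO livers. The Serpina1 genes are near-identical copies of each other, so how reads were divided among them is uncertain. The gene called lower was Vnn1, a pantetheinase, at 241 ± 32.3 CPM in the WT and 59.4 ± 12.5 CPM in the HKO livers (SD, n = 4). It fell by 2.02 on the log2 scale (SE 0.15, edgeR adjusted p = 0.000259). The largest fold change of the list was that of Serpina1e, 3.62 (SE 1.23), with WT values from 82.5 to 783 CPM and HKO values from 662 to 7529 CPM. Its edgeR adjusted p was 0.177, while DESeq2 (adjusted p = 0.0211) and limma-voom (adjusted p = 0.0385) called it. The list summed to 41300 to 52700 CPM in the WT and 61700 to 80000 CPM in the HKO livers, while the 10 members summed to 2710 to 3310 and 2530 to 4130 CPM.

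**Figure D5:**
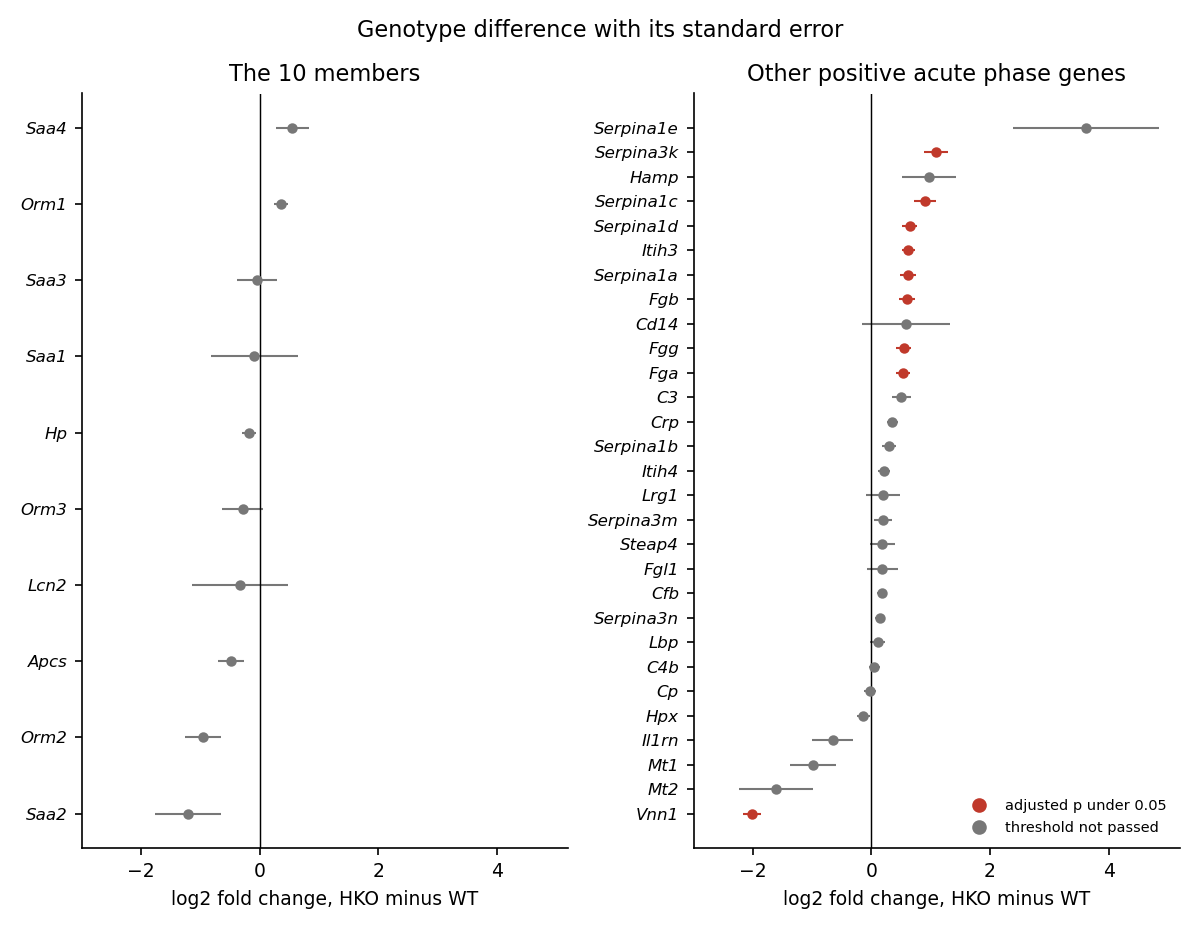
Log2 fold change of HKO against WT livers with its standard error for the 10 members (left) and the 29 other positive acute phase genes tested (right), ordered by size, with genes at an edgeR adjusted p under 0.05 in red. No member is red, and 9 genes on the right are, 8 of them above 0 and Vnn1 below it.

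Of 12 negative acute phase genes, whose plasma proteins fall during inflammation, 2 were called, and both were higher in HKO livers. These were the fetuins Ahsg (log2 fold change 0.65, SE 0.12, edgeR adjusted p = 0.0109) and Fetub (0.48, SE 0.12, edgeR adjusted p = 0.0355). Of the 10 cytokine ligands 8 were listed and 4 tested, and none was called. Il1b had the largest fold change (0.49, SE 0.33, edgeR adjusted p = 0.462), at 1.18 to 1.68 CPM in the WT and 1.39 to 3.44 CPM in the HKO livers, with the highest value in HKO replicate 3. Il6, named after its values were seen, was at 0 to 0.131 CPM, under the floor of 3 counts in every liver.

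Of the 12 receptors, 3 were called, all higher in HKO livers. Lifr, the receptor of leukemia inhibitory factor, was 187, 189, 220 and 229 CPM in WT livers and 443, 426, 879 and 462 CPM in HKO livers (log2 fold change 1.42, SE 0.24, edgeR adjusted p = 0.0158). Il1r1, the IL-1 receptor, was 34.6, 41.0, 52.4 and 50.6 CPM in WT and 69.6, 88.2, 125 and 69.0 CPM in HKO livers (0.98, SE 0.22, edgeR adjusted p = 0.0393). The genotypes did not overlap in either receptor, and HKO replicate 3 was the highest liver in both. Il1rap, the co-receptor of Il1r1, had a log2 fold change of 0.42 (SE 0.11, edgeR adjusted p = 0.0447). Of the 8 fits that left out 1 liver, 6 called Lifr, 3 called Il1r1 and 1 called Il1rap, with edgeR adjusted p of up to 0.0627, 0.126 and 0.135.

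Of 18 signaling genes and transcription factors 2 were called, Stat3 and Hnf4a, a transcription factor of hepatocytes. Stat3, which carries the IL-6 signal, was 53.7, 63.0, 65.0 and 54.9 CPM in WT livers and 85.8, 96.5, 81.5 and 88.7 CPM in HKO livers. No HKO liver came near the WT range (log2 fold change 0.57, SE 0.09, edgeR adjusted p = 0.00496), and the call held in all 8 fits that left out 1 liver. Hnf4a had a log2 fold change of 0.36 (SE 0.09, edgeR adjusted p = 0.0406), a call that held in 1 of those 8 fits. The largest fold change of this list was that of Relb, −0.87 (SE 0.37, edgeR adjusted p = 0.228), at 0.514 CPM in HKO livers on average. Cebpb, a C/EBP factor named after its values were seen, was 35.9 to 60.4 CPM in the WT and 31.4 to 56.97 CPM in the HKO livers (edgeR adjusted p = 0.996).

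None of the 15 feedback inhibitors and early target genes tested passed with edgeR. Socs2, an inhibitor of cytokine signaling, had the largest fold change (1.14, SE 0.59, edgeR adjusted p = 0.355), and its highest value, 56.7 CPM, was again in HKO replicate 3. Jun, an early target gene named after its values were seen, was 18.2 to 20.8 CPM in the WT and 9.80 to 15.9 CPM in the HKO livers. Its log2 fold change of −0.56 (SE 0.15) had an edgeR adjusted p of 0.0516, and DESeq2 (adjusted p = 0.0152) and limma-voom (adjusted p = 0.0481) called it. Of 18 binding partners and receptors of the members tested, 1 was called, a share near the 5.03% over all genes. It was the scavenger receptor Cd36, at 441 ± 82.0 CPM in the WT and 88.3 ± 34.6 CPM in the HKO livers (SD, n = 4). This is a decrease on the log2 scale of −2.32 (SE 0.34, edgeR adjusted p = 0.0142).

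The median log2 fold change was 0.12 for the negative acute phase genes, 0.10 for the ligands, 0.38 for the receptors, 0.03 for the signaling genes, 0.11 for the feedback genes and −0.10 for the binding partners, beside 0.01 over all genes tested. Over all 7 lists 17 genes were called. Leaving out 1 liver at a time kept the direction of all 17, and Vnn1, Stat3 and Cd36 remained called in all 8 fits. The other 14 lost the call at least once, with edgeR adjusted p of up to 0.135. Without WT replicate 2 all 14 did so, without WT replicate 1 there were 11, without HKO replicate 4 there were 8, and without WT replicate 3 there were 8. Calls were lost over all genes too. Of the 624 genes called with all livers, 209 remained called without WT replicate 2 and 265 without WT replicate 1. Without HKO replicate 4 there were 329, and without WT replicate 3 there were 438.

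The marker lists of liver cell types gave the setting of these values, again beside 5.03% of all genes tested called by edgeR. Of 8 hepatocyte markers 4 were called higher in HKO livers, Cps1 (log2 fold change 1.26), Tat (0.87), Serpina1a (0.61) and Hnf4a (0.36), and of 8 hepatic stellate cell markers 2 were called lower, Col1a1 (−2.81) and Col3a1 (−1.87), with edgeR adjusted p of 0.00433 to 0.0406. No marker of Kupffer cells and macrophages (12 tested), endothelial cells (6), erythroid cells (5), neutrophils (3), cholangiocytes (3), adipocytes (2) or T and B lymphocytes (1) was called by edgeR. The largest fold changes on these lists were those of Marco (−1.08), Kdr (0.69), Hbb-bt (−2.13), S100a9 (0.92), Epcam (3.11), Cfd (−2.65) and Cd4 (1.84), with edgeR adjusted p from 0.0760 to 0.548. DESeq2 called Cd4 (adjusted p = 0.0254). Without HKO replicate 2 the log2 fold change of Epcam was 0.43 (edgeR adjusted p = 0.689) and that of S100a9 was 0.30 (edgeR adjusted p = 0.786). The part of these cell types in the values of the members was not tested.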

How the data were processed

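The authors aligned reads and deposited estimated counts per gene, assigned by the expectation-maximization method of Partek, for 17810 genes. The submitters' processing notes name STAR and Partek; versions, genome build and annotation are not given in the sources used here. Listed coordinates shared a start or end with RefSeq GRCm38.p6 for all 10 members. Per the labels, rRNA was depleted but a kit for small RNA was used, so the library type is uncertain. Order numbers separated HKO from WT libraries, so order and genotype cannot be told apart.

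Estimated counts were rounded and tested with edgeR 4.0.16 in R 4.3.3 (TMM, default expression filter with a minimum count of 10, robust quasi-likelihood test, Benjamini-Hochberg over 12395 genes, threshold 0.05). Log2 CPM used a prior count of 2. DESeq2 1.42.0, voom from limma 3.58.1, other scalings and filters, edgeR's legacy method, a block on the replicate number, a fold-change minimum of 1.5, summed paralogs and omission of each liver served as alternatives. Within-liver log2 ratios of counts used a pseudocount of 0.5. Ratios, exact permutation tests (70 allocations, two-sided), sequences and plots used Python 3.11.15, scipy 1.17.1, biopython 1.88 and matplotlib 3.10.9. Transcript lengths and windows came from GENCODE on GRCm38. No count column was left out, and 80.5% of deposited values were whole. The titles give every library its own number, whereas the descriptions of all WT libraries begin with the same number. The title numbers were taken here as those of separate mice, and p-values measure the spread between mice only if this holds.

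The text names all 10 members and, of each list, genes with an adjusted p under 0.05 and the gene with the largest absolute fold change. For 5 members, it also names the 3 tested genes outside the members with the highest correlation over the livers and a mean CPM of at least 10. The members and lists were chosen with earlier results of these data known. On simulated counts for 12260 genes, the edgeR test recovered 97% of the genes given a log2 change of 2 and 67.3% of those given 1, with 8.43% of its calls false. The changed genes were drawn at random, so these rates do not carry over to members that vary widely between livers. Saa1 and Lcn2, for example, had SEs of 0.74 and 0.81.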

Additional observations from a re-analysis of the deposited data

Results flagged for a closer look

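The 20 groups of 4 livers for the members and the 18 for the marker lists were examined for a liver far from the other 3, and 5 such livers were found. For independent, normally distributed values about 1 in 20 groups, here 1.9 of 38, would be by chance. CPM values need not be so distributed, and the groups share the same livers. The 5 found can therefore not be compared with the 1.9. Saa1 was 192 CPM in HKO replicate 3 and 22.5 to 44.9 CPM in the other HKO livers. Lcn2 was 38.7 CPM in HKO replicate 2 and 2.72 to 8.57 CPM in the others. Hp was 1524 CPM in WT replicate 3 and 1849 to 1906 CPM in the other WT livers. The summed Kupffer cell and macrophage markers of HKO replicate 2 were 98.8 CPM, with 281 to 303 CPM in the other HKO livers. The summed neutrophil markers of HKO replicate 2 were 49.1 CPM, with 2.48 to 3.83 CPM in the others, and Ltf alone gave 39.0 CPM of this sum.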

How the results depend on the processing

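The count of genes called was 624. It was 1014 with DESeq2 and 367 with a fold change above 1.5 added, and 212 to 598 with 1 liver left out. The count of members called was 0. It was 1 with DESeq2 (Orm2), 0 to 1 with 1 liver left out (Apcs without WT replicate 3), and 0 with limma-voom, every other scaling and filter, and the legacy method. No label ties livers of the same replicate number to each other. Deviations of same-numbered livers from their group means had correlations of −0.0625, 0.0116, −0.0847 and −0.149. Livers with different numbers gave −0.213 to 0.245. Without known pairs to compare with, these values cannot exclude a pairing. With the replicate number as a block 456 genes and 1 member were called, Orm2, with a log2 fold change of −0.89 (SE 0.16, edgeR adjusted p = 0.0256).

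With 1 liver left out, the log2 fold change of Saa1 ranged from −1.23 to 0.21, and it was above 0 without WT replicate 4 (0.13), HKO replicate 1 (0.16), HKO replicate 2 (0.08) or HKO replicate 4 (0.21). That of Saa3 ranged from −0.43 to 0.13 and was above 0 without WT replicate 2, WT replicate 3, HKO replicate 2 or HKO replicate 4. That of Orm3 ranged from −0.58 to 0.045 (without WT replicate 2) and that of Lcn2 from −1.56 to 0.0069 (without HKO replicate 4). With all livers Saa1 was −0.09 and Lcn2 −0.33, against −0.56 and −0.94 with limma-voom and −0.65 and −0.85 with the replicate block. Orm2 and Orm3 summed with Orm1 gave 0.31, since Orm1 holds most of these counts. Saa2, Saa4, Orm1, Hp and Apcs kept their direction in every setting run. At these depths, counts limit Saa3 most, with 19 to 87 per liver.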

Other observations

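The genes most alike to 5 members in genotype-centered log2 CPM over the 8 livers were taken from 7265 tested genes with a mean CPM of at least 10, outside the members. For Saa1 these were Hexim1 (Pearson r = 0.955), Ahcyl2 (0.955) and Ugt2b37 (0.954), which were all highest in HKO replicate 3, at 52.9, 42.2 and 37.7 CPM. For Lcn2 they were Slc12a2 (0.976), a sodium, potassium and chloride cotransporter, Mlf2 (0.947) and Kmt2d (0.938), which were all highest in HKO replicate 2, at 33.3, 74.7 and 32.6 CPM. For Saa3 they were Smurf2 (0.976), Tnfrsf1b (0.962), a TNF receptor, and Anks1 (0.957). For Orm2 they were Polr2j (0.970), Lamtor3 (0.951) and Nfkbia (0.943), an inhibitor of NF-kB. For Hp they were Ube2v2 (0.958), Pan3 (0.957) and Utp6 (0.946). The coefficients are the highest of many over 8 libraries that share their scaling, and describe these livers only.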
